A study of Mus musculus with 60 samples.

Results

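The genes described here encode the mitochondrial respiratory chain and the ATP synthase in the mouse brain. They were chosen by name from a table of 21950 genes: every symbol that starts with mt-, Nduf, Uqcr or Atp5, every Cox symbol followed by a digit from 4 to 8, and Sdha, Sdhb, Sdhc and Sdhd. The rule took 106 genes, 13 of them carried by the mitochondrial genome (the mt- genes) and 93 by the nuclear chromosomes. The rule uses names alone. Of the 106, 104 had a read in every library, Cox8b had a read in 57 of 60 libraries, and Cox8c stood at or near 0 throughout.

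The study compared mice lacking Adgrl3 (Adgrl3 -/-, here KO), the gene for an adhesion receptor also called latrophilin 3 or Lphn3, with Adgrl3 +/+ mice (WT). The labels give 12 mice of each genotype, killed at postnatal days 65 to 76, whose frozen brains were dissected into prefrontal cortex, hippocampus and striatum. Bulk RNA sequencing gave 10 libraries for each genotype and region, 60 in all. The labels name no other allele or treatment for either genotype. The labels do not tie a library to a mouse, so p-values measure the spread between these libraries. Libraries held 38985577 to 51387833 counted reads, with a median of 45056859. Adgrl3 itself lay between 116.6 and 175.6 CPM (counts scaled to a fixed library total) in the 30 WT libraries and between 16.5 and 46.9 CPM in the 30 KO libraries, with no overlap in any region. Its remaining reads are counted over the whole gene, since the counting took gene intervals.

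Oxidative phosphorylation passes electrons from NADH through complex I, or from succinate through complex II, to complex III and on to cytochrome c oxidase (complex IV), while ATP synthase (complex V) uses the proton gradient that complexes I, III and IV build. Complex II is wholly nuclear encoded, and the other complexes join a few core subunits made inside the organelle to many imported ones. Neurons depend heavily on this pathway to restore ion gradients after firing. Several complex IV subunits also have alternative forms, known from heart, skeletal muscle, lung or testis, that replace the common one.

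Among the 13 mt- genes, 7 encode complex I subunits, 1 (mt-Cytb) the cytochrome b of complex III, 3 the catalytic core of complex IV and 2 the membrane part of ATP synthase. The 93 nuclear genes comprised 36 subunit genes of complex I, 4 of complex II, 8 of complex III, 20 of complex IV and 15 of complex V. A further 8 were complex I assembly factors (Ndufaf genes), and Atp5s and Atp5sl were kept apart as no ATP synthase subunits. Ndufa4 and Ndufa4l2 were counted with complex IV.

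The mt- genes were far more abundant than the nuclear ones. In WT they took 6.25% ± 0.396 of all counted reads in hippocampus, 6.79% ± 0.457 in prefrontal cortex and 7.53% ± 0.406 in striatum (SD, n = 10 each). In KO the same shares were 6.34% ± 0.286, 6.89% ± 0.639 and 7.84% ± 0.504. The 83 nuclear subunit genes together took 0.897% ± 0.0180, 0.851% ± 0.0545 and 0.825% ± 0.0328 in WT, and 0.888% ± 0.0248, 0.855% ± 0.0629 and 0.846% ± 0.0640 in KO, in the same order of regions. The mt- share was thus highest in striatum and lowest in hippocampus in both genotypes. The nuclear share had the opposite order of means, but that order depended on the scaling: in TMM-scaled CPM (library totals adjusted by the trimmed mean of M-values) the summed nuclear level was 8646 in WT hippocampus and 8650 in WT prefrontal cortex.

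**Figure D1:**
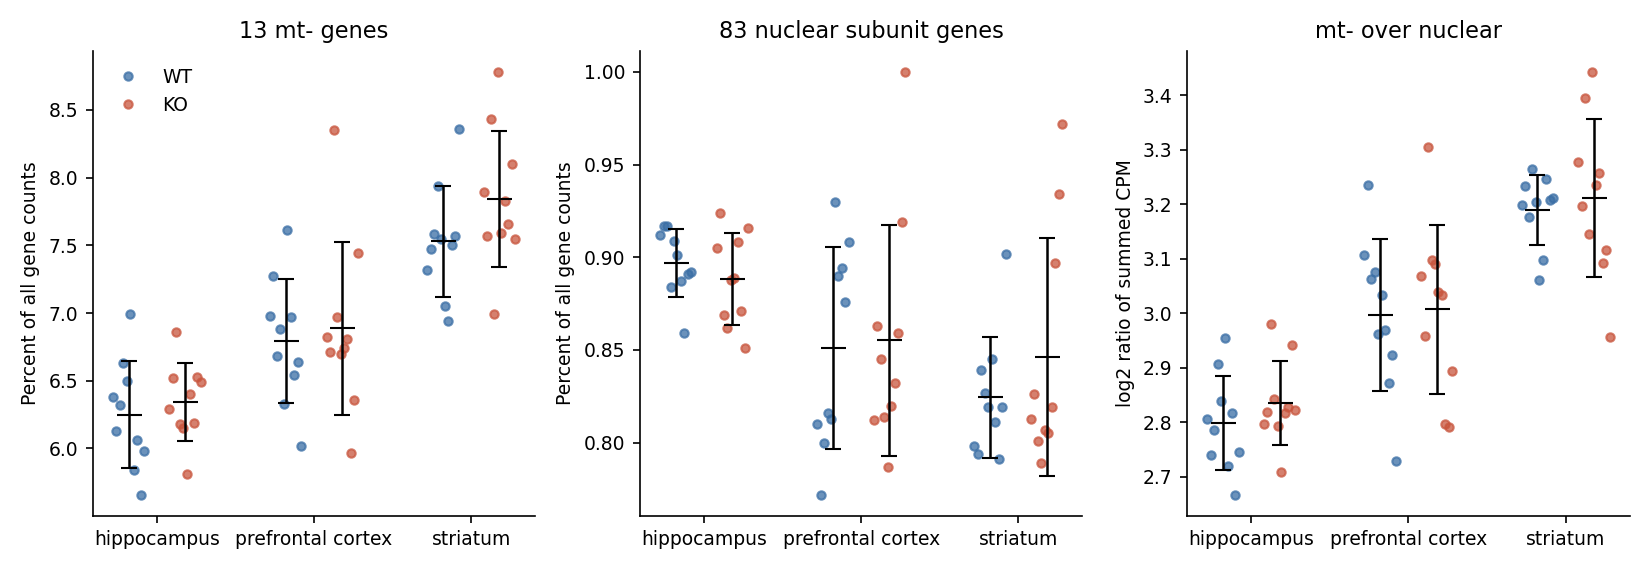
Share of all counted reads taken by the 13 mt- genes and by the 83 nuclear subunit genes in each of the 60 libraries, in percent, and the log2 ratio of their summed CPM, by region and genotype. Points are libraries and the marks give the mean and SD of 10. WT means of the mt- share run from 6.25% in hippocampus to 7.53% in striatum, while 3 KO striatum libraries stand above the rest of their group in the nuclear share.

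The log2 ratio of summed mt- to summed nuclear subunit CPM was 2.80 ± 0.0869 in WT hippocampus, 3.00 ± 0.140 in WT prefrontal cortex and 3.19 ± 0.0643 in WT striatum (SD, n = 10). No striatum library of the WT mice lay as low as any hippocampus library, and the difference of means was 0.392 (SE 0.034). In KO the same difference was 0.377 (SE 0.052), and 9 of 10 striatum libraries lay above all hippocampus libraries. Striatum exceeded prefrontal cortex by 0.193 (SE 0.049) in WT and 0.204 (SE 0.067) in KO, with overlapping groups. KO and WT overlapped in every region, with differences of 0.037 (SE 0.037) in hippocampus, 0.011 (SE 0.066) in prefrontal cortex and 0.022 (SE 0.050) in striatum. These ratios are descriptions and were not tested, since they summarise many genes at once.

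Per kilobase of exon, the mt- genes had a median of 4749 CPM over the 60 libraries, the nuclear subunit genes 45 CPM and the assembly factors 8.39 CPM, so the mt- median was 105.5 times the nuclear one. Reads in introns were counted too, which raises the per-kilobase level of nuclear genes with long introns. Exon length was the union of all annotated exons, 6883 bases for Ndufab1 and 6443 for Atp5l, which lowers the level of a gene whose main message is shorter. The ratio of medians is therefore approximate. mt-Co1, the subunit of cytochrome c oxidase that holds the oxygen-reducing site, led at 13591 CPM per kb, followed by mt-Atp6 (11711), mt-Co3 (9624) and mt-Co2 (8860). The complex I genes on the same strand were lower, from 4749 for mt-Nd4 and 4551 for mt-Nd1 down to 1886 for mt-Nd5 and 1275 for mt-Nd3. Cox8a, a small structural subunit of complex IV, was the highest nuclear member at 403.7 CPM per kb, ahead of the ATP synthase alpha subunit gene Atp5a1 (253.7) and the beta subunit gene Atp5b (238.0). At the low end of the nuclear members, the alternative complex IV subunits Cox4i2, Cox6b2, Cox8b and Cox7b2 had 1.44, 0.744, 0.644 and 0.617 CPM per kb.

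Variation among libraries of a group differed between members. The median coefficient of variation within groups was 9.28% for the mt- genes, from 5.46% for mt-Co1 to 20.3% for mt-Nd6, and 6.78% for 92 nuclear genes, from 2.67% to 67.1%. mt-Atp8 had 18.8% and mt-Nd3 13.6%, while mt-Nd4l, also a short gene, had 7.45%.

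Mouse mitochondrial DNA is transcribed as long RNAs from both strands and cut into single messages, except that neighbouring reading frames can stay on 1 message. The sequences at 3 gene ends are shown because they bear on which reads a count can hold. They come from GENCODE vM21 transcripts on GRCm38, and all are written 5′ to 3′. In the first, at chrM:7915-7981, capitals mark the start codon of mt-Atp6 and, downstream, the stop codon of mt-Atp8, so that 43 bases belong to both genes. In the second, at chrM:10137-10203, capitals mark the start codon of mt-Nd4 and the stop codon of mt-Nd4l, and 7 bases are shared. The last pair, at chrM:13521-13565 on the plus strand and chrM:13552-13596 on the minus strand, shows the ends of mt-Nd5 and mt-Nd6, which face each other. Capitals mark their 14 shared bases, read on opposite strands.
mt-Atp8 and mt-Atp6: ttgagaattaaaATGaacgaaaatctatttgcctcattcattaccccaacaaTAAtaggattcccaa
mt-Nd4l and mt-Nd4: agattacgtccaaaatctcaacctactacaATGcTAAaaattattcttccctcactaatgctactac
mt-Nd5 end: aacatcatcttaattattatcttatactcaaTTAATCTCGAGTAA
mt-Nd6 end: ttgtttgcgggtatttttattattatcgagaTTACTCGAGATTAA
No label or file header states whether the counting used strand. mt-Nd6, the 1 mt- gene on the minus strand, had 39729 reads over all libraries. Its plus-strand neighbours mt-Nd5 and mt-Cytb had 9296088 and 19080436. The part of mt-Nd6 reads from opposite-strand RNA was not tested.

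Region was the larger axis of variation for these genes. Each difference below is a log2 difference between libraries scaled by TMM, tested with edgeR's quasi-likelihood test and Benjamini-Hochberg adjustment over all genes tested; a gene was called at an adjusted p under 0.05. Between WT striatum and hippocampus 62 of 105 tested members were called, against 66.6% of all genes tested. Of these 17 were higher in striatum (all genes 32.7%) and 45 lower (all genes 33.9%). The 2 genomes moved apart: 12 of 13 mt- genes were higher in striatum (median log2 difference 0.40), and 44 of 92 nuclear members were lower against 5 higher (median -0.078, all genes -0.003). In libraries made from whole tissue, fewer cells of a type and less RNA per cell cannot be told apart.

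mt-Nd4l, a small membrane subunit of complex I, ran from 733.1 CPM (lowest) through 797.2 (median) to 823.2 (highest) in WT hippocampus and from 1026 through 1163 to 1290 in WT striatum. The groups did not overlap, and the log2 difference was 0.56 (SE 0.04, adjusted p = 2.45e-13). mt-Nd4, encoded just after it, ran from 4709 through 5200 to 6232 CPM in hippocampus and from 6762 through 7652 to 8419 CPM in striatum, a log2 difference of 0.51 (SE 0.05, adjusted p = 2.6e-10). mt-Cytb ran from 5462 through 6076 to 6686 CPM in hippocampus and from 7637 through 7984 to 8678 CPM in striatum (log2 difference 0.40, SE 0.04, adjusted p = 3.3e-11). Each of these had every striatum library above every hippocampus library, as had mt-Nd1, mt-Nd5 and mt-Co2, which makes 6 mt- genes with no overlap. The share of all genes without overlap was not counted, so this number is a description without a background.

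The remaining mt- genes were graded. Differences of striatum minus hippocampus in WT were 0.51 for mt-Atp8, 0.47 for mt-Nd5, 0.46 for mt-Nd2, 0.40 for mt-Atp6, 0.37 for mt-Nd1, 0.31 for mt-Co2, 0.31 for mt-Nd3, 0.23 for mt-Co3 and 0.19 for mt-Co1, all called. The 3 complex IV genes therefore lay at or near the low end of the range. mt-Nd6 went the other way: it ran from 14.9 through 17.1 to 23.6 CPM in WT hippocampus and from 8.02 through 12.7 to 27.1 CPM in WT striatum (log2 difference -0.38, SE 0.17, adjusted p = 0.049). Its groups overlapped widely, and that call was lost in 5 of 10 other settings, with adjusted p up to 0.0698. In KO the mt-Nd6 difference was -0.42 (SE 0.12, adjusted p = 0.00229).

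Several mt- genes were also higher in WT striatum than in prefrontal cortex. Of 105 tested members 50 were called (all genes 71.5%), 16 higher in striatum (all genes 36.9%) and 34 lower (all genes 34.6%). The mt- genes gave 7 higher and 0 lower (median 0.14), and the nuclear members 9 higher and 34 lower (median -0.070, all genes 0.013). mt-Nd4l was again the mt- gene that stood farthest apart: prefrontal cortex ran from 681.5 through 865.7 to 940.1 CPM, below every striatum library (log2 difference 0.44, SE 0.04, adjusted p = 6.13e-11). mt-Nd4 (0.27), mt-Nd2 (0.25), mt-Cytb (0.25), mt-Nd5 (0.21), mt-Nd1 (0.12) and mt-Co2 (0.11) were also called, whereas mt-Co1 (0.06, adjusted p = 0.118), mt-Co3, mt-Atp6, mt-Atp8, mt-Nd3 and mt-Nd6 were not. The last 2 of the called genes were the least firm: mt-Nd1 (adjusted p = 0.0400) was no longer called in 6 of 10 other settings, with adjusted p from 0.0120 to 0.172, and mt-Co2 (adjusted p = 0.0265) in 4 of 10, with adjusted p from 0.00209 to 0.120. Without WT replicate 10 neither was called and the mt- count was 5 of 13.

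Hippocampus had the lowest medians for all mt- genes but mt-Nd6. Against WT prefrontal cortex 46 of 105 members were called (all genes 68.5%), 21 higher in hippocampus (all genes 36.9%) and 25 lower (all genes 31.6%). Of the mt- genes 11 were lower, from -0.12 for mt-Nd4l to -0.33 for mt-Atp8, mt-Nd6 was higher (0.47, SE 0.17, adjusted p = 0.016), and mt-Nd3 was not called (-0.17, adjusted p = 0.134). mt-Atp6, the proton-channel subunit of ATP synthase, ran from 5276 through 6450 to 7685 CPM in hippocampus and from 6882 through 8259 to 9132 CPM in prefrontal cortex (log2 difference -0.30, SE 0.07, adjusted p = 2.08e-04), with overlap. Nuclear members were split, 20 higher and 14 lower. This split depended on the scaling: over all members it was 21 higher and 25 lower with TMM, 15 and 29 with RLE size factors, 14 and 28 with DESeq2, 35 and 22 with limma-voom, and 47 and 9 when only total counts were used. Shares of all genes called under the other scalings are not given here.

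**Figure D2:**
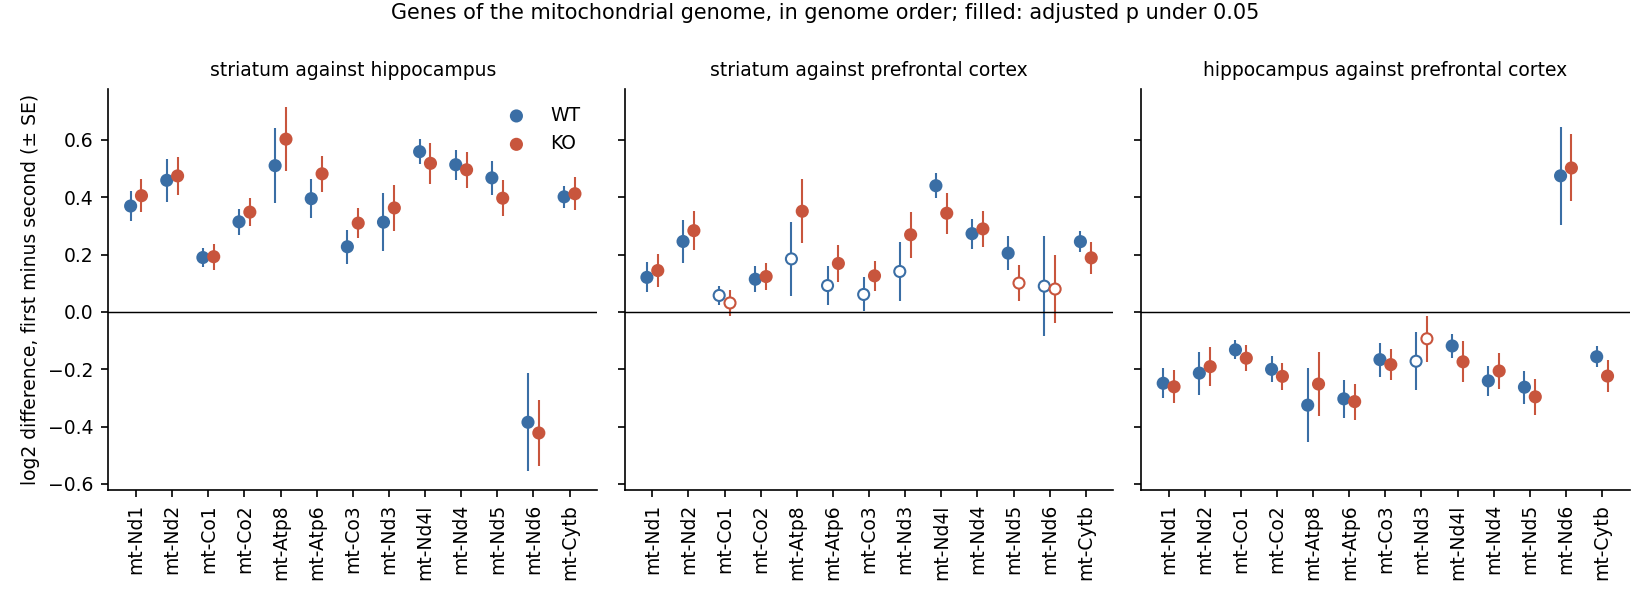
Log2 differences between regions for the 13 mt- genes, with standard errors, in WT and in KO libraries (30 libraries each), in genome order. Filled points have an adjusted p under 0.05. All but mt-Nd6 lie above 0 in striatum against hippocampus, from 0.19 for mt-Co1 to 0.56 for mt-Nd4l in WT, and mt-Nd6 lies below 0.

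The KO mice gave the same contrasts in other libraries. Of the 13 mt- genes called between striatum and hippocampus in WT, 13 were called with the same sign in KO. For striatum against prefrontal cortex it was 6 of 7, and for hippocampus against prefrontal cortex 12 of 12. In all, KO striatum against hippocampus called 40 of 104 members (all genes 62.5%), 25 higher (all genes 31.8%) and 15 lower (all genes 30.7%). Striatum against prefrontal cortex called 46 of 104 (all genes 70.9%), 19 higher (all genes 36.7%) and 27 lower (all genes 34.2%). Hippocampus against prefrontal cortex called 46 of 104 (all genes 66.0%), 12 higher (all genes 34.8%) and 34 lower (all genes 31.2%). Of 49 nuclear members called in WT striatum against hippocampus 46 had the same sign in KO and 19 were called there too, with 30 of 43 for striatum against prefrontal cortex and 23 of 34 for hippocampus against prefrontal cortex. With total counts as the only scaling, the KO splits of higher and lower calls became 17 and 29, 23 and 12, and 27 and 11 in the same order. For KO striatum against hippocampus limma-voom gave 26 higher and 28 lower, and shares of all genes are not given for these settings.

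That KO contrast changed when a few libraries were left out. KO striatum replicates 8, 9 and 10 had nuclear shares of 0.897% to 0.972%, above the 0.789% to 0.826% of replicates 1 to 7. They were picked for this high share, so leaving these 3 libraries out lowers the nuclear values of KO striatum by construction. Without them KO striatum against hippocampus called 65 members in place of 40, and the nuclear split changed from 13 higher and 14 lower to 7 higher and 45 lower, while the mt- split stayed at 12 higher and 1 lower. For striatum against prefrontal cortex the mt- count went from 10 to 4 of 13. Shares of all genes called without these libraries are not given here, so these counts have no background. The same 3 libraries had an oligodendrocyte marker sum (Mbp, Mog, Mag, Mobp, Cnp and Cldn11) of 6861 to 7279 CPM against 3803 to 5787 CPM in replicates 1 to 7, and an astrocyte marker sum of 3013 to 3247 CPM against 3515 to 3785 CPM. The sum of Pvalb, Syt2, Kcns3, Tac1, Erbb4 and Kcnc2, listed for parvalbumin interneurons, was 447.4 to 479.0 CPM there against 350.9 to 438.1 CPM in replicates 1 to 7. Of these 6 genes 3 were called higher and 2 lower in WT striatum against hippocampus (all genes 32.7% and 33.9%). Their sum therefore need not follow a single cell type. WT striatum replicate 10 also stood apart in the nuclear share, at 0.902% against 0.791% to 0.845%, but had an oligodendrocyte sum of 4123 CPM, inside its group's range. The part of cell makeup in the shares was not tested.

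Cell makeup also differed between the regions. The oligodendrocyte sum was 1696 to 2920 CPM in WT hippocampus, 826.0 to 1121 CPM in prefrontal cortex and 3616 to 7020 CPM in striatum. The sum of the markers of medium spiny neurons, the main neurons of the striatum, was 3842 to 5591 CPM in striatum. It was 89.7 to 473.8 CPM in hippocampus and 132.3 to 173.8 CPM in prefrontal cortex, so the striatum libraries carried the markers of their label. Excitatory neuron markers gave 4389 to 5411, 4916 to 5742 and 1947 to 2874 CPM in hippocampus, prefrontal cortex and striatum. The genes listed for parvalbumin interneurons, which did not share a direction, summed to 259.8 to 297.0, 256.0 to 307.2 and 366.4 to 460.2 CPM in the same order. In WT prefrontal cortex the sum of 5 olfactory bulb markers ran from 7.33 through 52.4 to 104.8 CPM. In KO prefrontal cortex it ran from 5.87 through 8.28 to 55.2 CPM. Against WT prefrontal cortex, 5 of 5 were called lower in hippocampus (all genes 31.6%) and 5 of 5 in striatum (all genes 34.6%). Between KO and WT in prefrontal cortex 0 of 5 were called, with a median log2 difference of -1.719. The part of these cells and tissues in the differences between regions or genotypes was not tested.

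Nuclear differences between regions were small. The median absolute log2 difference of nuclear members was 0.102, 0.091 and 0.074 in the WT contrasts of striatum with hippocampus, striatum with prefrontal cortex and hippocampus with prefrontal cortex, where all genes tested had 0.213, 0.256 and 0.223. At an absolute log2 difference of at least 1, called members numbered 1, 1 and 2 against 1612, 1837 and 1605 called genes in all. Cox8b was that member in each contrast, joined by Cox6b2 in the last. Cox8b had few reads and its tests depend on the low-count filter, as described below. Between WT striatum and hippocampus, calls in each complex were mostly lower in striatum. Among nuclear complex I genes 20 of 36 were called lower and 1 higher (median -0.089). Complex II gave 2 of 4 lower, complex III 4 of 8 (median -0.122), complex IV 9 of 19 lower with 3 higher (median -0.072), and complex V 6 of 15 (median -0.075), with none higher in II, III or V. Assembly factors gave 2 of 8 lower and 0 higher. The lower calls of complex IV include Cox8b. Over all genes 33.9% were called lower and 32.7% higher, so the lower counts of complex V and of the assembly factors lay near or under the background, and those of complexes II and III rest on few genes.

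Ndufb6, an accessory subunit of the complex I membrane arm, ran from 36 through 39.1 to 42.9 CPM in WT hippocampus and from 29.5 through 30.4 to 37.5 CPM in WT striatum. Only the upper end of the striatum group reached into the hippocampus range, and the log2 difference was -0.31 (SE 0.05, adjusted p = 1.22e-06). Ndufb11, another accessory subunit of that arm, was lower by a similar amount (-0.28, SE 0.04, adjusted p = 1.14e-06), and Uqcrc2, a core subunit of complex III, differed by -0.23 (SE 0.03, adjusted p = 2.67e-07). Sdhd, a membrane anchor of complex II, differed by -0.20 (SE 0.04, adjusted p = 1.04e-05), and Sdha, its flavoprotein, was not called (0.00, SE 0.02, adjusted p = 0.853). Ndufa10, Uqcr10 and Atp5s had every striatum library below every hippocampus library, again without a count of such genes over all genes. Ndufb10 (0.16, SE 0.04, adjusted p = 9.25e-04) and Cox5a (0.11, SE 0.04, adjusted p = 0.0111) were higher in striatum.

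Against prefrontal cortex the largest nuclear differences in WT striatum fell on complexes I, II, IV and V. Ndufv1, the complex I subunit that binds NADH and FMN, ran from 137.8 through 143.7 to 152.9 CPM in prefrontal cortex and from 111.1 through 120.3 to 135.6 CPM in striatum. Those groups did not overlap, and the log2 difference was -0.25 (SE 0.03, adjusted p = 1.63e-08). In KO, where the groups were also apart, it was -0.23 (SE 0.03, adjusted p = 2.76e-08). Atp5o, the ATP synthase subunit that confers oligomycin sensitivity, differed by -0.24 (SE 0.03, adjusted p = 1.29e-07), Ndufa8 by -0.24 (SE 0.04, adjusted p = 4.59e-06), Ndufb6 by -0.23 (SE 0.05, adjusted p = 7.77e-05), Sdhb, the iron-sulfur subunit of complex II, by -0.22 (SE 0.04, adjusted p = 5.4e-06) and Ndufc2 by -0.21 (SE 0.06, adjusted p = 0.00488). Ndufa1, a small complex I subunit, was higher in striatum by 0.37 (SE 0.06, adjusted p = 1.32e-06). With the replicate number as a block, used for contrasts with prefrontal cortex because same-numbered libraries deviated together there, Cox6b1 was also called lower in WT striatum (-0.09, adjusted p = 0.0303) and Cox7b in KO striatum (-0.13, adjusted p = 0.0157). In KO hippocampus against prefrontal cortex Cox7a2 (-0.12, adjusted p = 0.0115) and Cox8a (-0.12, adjusted p = 0.0151) were gained and mt-Atp8 was lost (-0.24, adjusted p = 0.0732).

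Between WT hippocampus and prefrontal cortex Ndufa1 (0.26, SE 0.06, adjusted p = 2.26e-04), Ndufb2 (0.25, SE 0.05, adjusted p = 3.38e-05) and Ndufb11 (0.21, SE 0.04, adjusted p = 6.06e-05), all accessory complex I subunits, were higher in hippocampus. Ndufb2 shares 37.21% of its span with Gm42420 on the same strand. Similar overlaps touch Ndufa13, which lies wholly within Yjefn3, Cox4i1, wholly within Gm20388, Ndufb8 (62.02% within Gm20538) and Atp5o (16.04% with Cryzl1). Values of these genes are uncertain to the extent that reads were given to either gene or both.

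**Figure D3:**
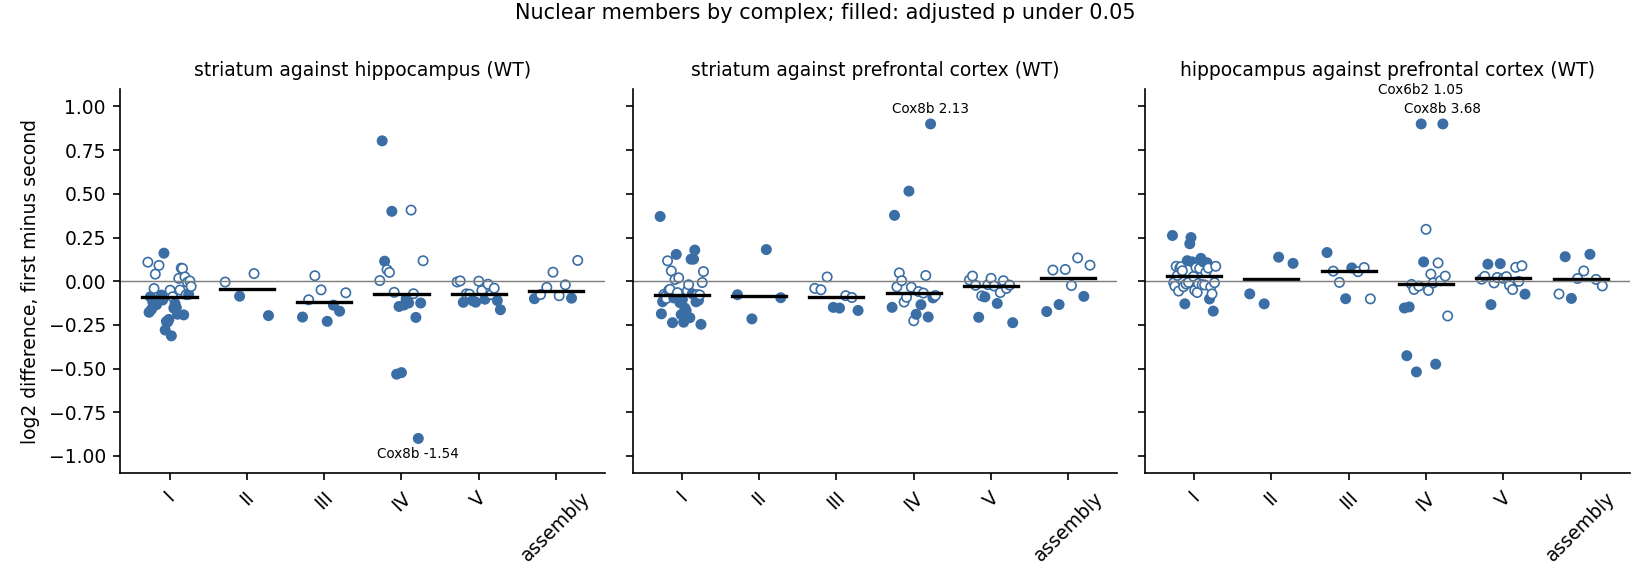
Log2 differences between WT regions for the nuclear members, by complex, one point per gene (filled where the adjusted p was under 0.05) and a bar at the median, with values beyond 0.9 in size drawn at 0.9 and labelled. The medians for striatum against hippocampus lie between -0.122 (complex III) and -0.045 (complex II), and the widest spread is among complex IV genes.

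Promoters of 3 members are shown for their place in the results: Ndufb6 as the nuclear member of complex I lowest in striatum against hippocampus, Sdhb for complex II, and Ndufaf4 as the assembly factor with the lowest p in KO against WT over the regions. Each covers 250 bases before to 50 after the RefSeq start on GRCm38.p6, 300 bases in all, and capitals mark letters matching a searched motif on either strand. They lie at chr4:40279372-40279671 (Ndufb6, minus strand), chr4:140961021-140961320 (Sdhb, plus strand) and chr4:24897833-24898132 (Ndufaf4, plus strand).
Ndufb6: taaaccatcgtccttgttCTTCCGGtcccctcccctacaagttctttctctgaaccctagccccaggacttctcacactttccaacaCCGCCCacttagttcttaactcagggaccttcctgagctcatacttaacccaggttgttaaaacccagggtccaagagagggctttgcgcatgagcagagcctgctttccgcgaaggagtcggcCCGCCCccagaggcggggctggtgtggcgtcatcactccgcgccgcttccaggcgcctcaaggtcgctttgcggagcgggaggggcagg
Sdhb: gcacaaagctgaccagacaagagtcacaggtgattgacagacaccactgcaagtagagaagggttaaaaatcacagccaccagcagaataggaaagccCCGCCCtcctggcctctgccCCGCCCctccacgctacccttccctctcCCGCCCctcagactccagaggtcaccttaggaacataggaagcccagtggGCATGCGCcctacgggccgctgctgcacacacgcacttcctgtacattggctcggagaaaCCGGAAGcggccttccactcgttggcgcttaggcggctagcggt
Ndufaf4: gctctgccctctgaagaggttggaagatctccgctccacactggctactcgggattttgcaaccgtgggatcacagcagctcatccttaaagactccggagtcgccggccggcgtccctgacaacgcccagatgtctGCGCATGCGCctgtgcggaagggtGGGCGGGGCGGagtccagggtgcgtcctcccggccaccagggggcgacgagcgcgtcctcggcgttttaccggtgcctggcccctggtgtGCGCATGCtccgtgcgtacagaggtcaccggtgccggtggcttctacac
The motifs searched were GCATGCGC (named for NRF1, a factor known to act on respiratory genes), AAGATGGCG (YY1), CCGGAAG (ETS factors such as GABP), GGGCGG (SP1) and AAGGTCA (estrogen-related receptors). None of these contains another, and matches on either strand were counted once per promoter. RefSeq promoters were matched for 74 of the 93 nuclear members. GCATGCGC was in 12 of them (16.2%) against 4.1% of 16341 genes with a promoter, AAGATGGCG in 8 (10.8%) against 2.2%, CCGGAAG in 18 (24.3%) against 13.3%, AAGGTCA in 8 (10.8%) against 4.6%, and GGGCGG in 33 (44.6%) against 51.0%. Among the 39 members called lower in WT striatum than hippocampus the shares were 12.8%, 5.1%, 20.5%, 12.8% and 43.6% in that order, and among the 35 others 20%, 17.1%, 28.6%, 8.6% and 45.7%. These are counts of letters, not of bound sites.

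The largest differences in the nuclear set belonged to the rare alternative subunits of complex IV. Cox4i2, the form of subunit IV known from lung (chr2:152754173-152765037), ran from 0.666 through 0.786 to 1.15 CPM in WT hippocampus, from 0.828 through 1.14 to 1.42 CPM in prefrontal cortex and from 1.03 through 1.47 to 1.75 CPM in striatum. Striatum and hippocampus overlapped only at the edge, and the log2 difference was 0.80 (SE 0.11, adjusted p = 1.87e-07). In KO it was 1.12 (SE 0.14, adjusted p = 1.87e-08), with no overlap. The common form, Cox4i1, was not called between WT striatum and hippocampus (0.00, SE 0.04, adjusted p = 0.941). Per kb of exon, Cox4i2 stood at 0.962% ± 0.164 of Cox4i1 in WT striatum, 0.667% ± 0.0766 in prefrontal cortex and 0.552% ± 0.102 in hippocampus (SD, n = 10).

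Cox8b, the form of subunit VIII known from heart and muscle (chr7:140898945-140900446), had counts of 6 to 53 reads in WT hippocampus, 2 to 16 in striatum and 0 to 4 in prefrontal cortex. On the CPM scale these were 0.139 through 0.472 to 1.14, 0.0430 through 0.203 to 0.386, and 0 through 0.0426 to 0.0937. Hippocampus lay wholly above prefrontal cortex (log2 difference 3.68, SE 0.44, adjusted p = 7.27e-09), striatum was higher than prefrontal cortex (2.13, SE 0.51, adjusted p = 4.47e-04) and lower than hippocampus (-1.54, SE 0.34, adjusted p = 1.71e-04). Cox8b passed the filter on low counts in the WT region fit and in hippocampus, where it is highest, but not in the KO region fit or in KO against WT in prefrontal cortex or striatum, so its region tests are not independent of the filter and are given as a description. Even in hippocampus it was 0.393% ± 0.238 of Cox8a per kb. Cox6b2, a form known from testis, followed the same order: 0.590 through 1.25 to 1.83 CPM in hippocampus, 0.393 through 0.806 to 1.25 in striatum and 0.421 through 0.586 to 0.682 in prefrontal cortex. Its differences were 1.05 (hippocampus minus prefrontal cortex, SE 0.19, adjusted p = 1.78e-05), 0.52 (striatum minus prefrontal cortex, SE 0.20, adjusted p = 0.0223) and -0.53 (striatum minus hippocampus, SE 0.19, adjusted p = 0.0136).

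Markers of the choroid plexus, an epithelium beside the hippocampus and striatum, moved with these rare genes. Summed over Ttr, Folr1, Kl, Clic6, Aqp1, Kcnj13 and Otx2, they gave 53.5 through 1498 to 2683 CPM in WT hippocampus, 34.0 through 367.3 to 1316 in striatum and 5.72 through 9.77 to 22.1 in prefrontal cortex. Within the 10 WT hippocampus libraries log2 Cox8b rose with the log2 marker sum (Pearson's r = 0.89, permutation p = 1.9e-04, adjusted over 12 relations 0.0014; Spearman's rho = 0.94, permutation p = 2.3e-04, adjusted 0.0028). Without the 2 libraries farthest from the median r was 0.88. In KO hippocampus r was 0.81 (permutation p = 0.0045, adjusted 0.011; rho = 0.87, adjusted 0.0085; 0.83 without 2 libraries), in KO striatum 0.75 (permutation p = 0.01, adjusted 0.021; rho = 0.75, adjusted 0.031; 0.41 without 2 libraries, on which it rests), and in WT striatum 0.56 (permutation p = 0.092, adjusted 0.10; rho = 0.68, adjusted 0.051).

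For Cox6b2 r was 0.85 in WT hippocampus (permutation p = 5e-04, adjusted 0.002; rho = 0.85), 0.88 in WT striatum (permutation p = 2.3e-04, adjusted 0.0014; rho = 0.87), 0.84 in KO hippocampus (permutation p = 0.0032, adjusted 0.0097; rho = 0.76) and 0.73 in KO striatum (permutation p = 0.019, adjusted 0.032; rho = 0.66, adjusted 0.058), and 0.71 to 0.86 without 2 libraries. Cox7a1, the heart and muscle form of subunit VIIa, gave r of 0.35 to 0.68, with adjusted permutation p from 0.042 to 0.35. Without 2 libraries its r was 0.15 in WT hippocampus and -0.20 in KO striatum, so there it rests on those libraries, against 0.52 in WT striatum and 0.58 in KO hippocampus. These relations were looked for after the data had been seen, over libraries that share depth and dissection, and whether the tissue accounts for the region differences of these genes was not tested.

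Cox7a1 (striatum minus hippocampus in WT -0.52, SE 0.14, adjusted p = 0.00128) was not called in KO between these regions (0.00, SE 0.18, adjusted p = 0.986). Its interaction of genotype and region, tested over all 3 regions together and not for this contrast alone, gave an unadjusted p of 0.0304 and an adjusted p of 1. Cox6a2, the heart and muscle form of subunit VIa, was lower in WT hippocampus than prefrontal cortex (1.90 through 2.47 to 3.11 against 2.34 through 3.73 to 4.23 CPM; log2 difference -0.52, SE 0.11, adjusted p = 8.72e-05) and in KO (-0.71, SE 0.18, adjusted p = 7.27e-04). Cox7b2, known from testis, was lower there too (-0.47, SE 0.20, adjusted p = 0.0343), at 0.194 to 0.400 against 0.209 to 0.739 CPM. Cox4i2 was also lower in WT hippocampus than prefrontal cortex (-0.43, SE 0.11, adjusted p = 0.00148) and higher in striatum than prefrontal cortex (0.38, SE 0.11, adjusted p = 0.00304). The alternative subunits thus did not share 1 order of regions. Skeletal muscle markers summed to 5.52 to 8.79 CPM in WT hippocampus, 11.8 to 19.7 in prefrontal cortex and 7.15 to 9.68 in striatum. Against prefrontal cortex 4 of 5 tested were called lower in hippocampus (all genes 31.6%) and 4 of 5 in striatum (all genes 34.6%). Cox6a2 was not called between striatum and prefrontal cortex (-0.12, adjusted p = 0.32). The part of such tissue in these differences was not tested.

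**Figure D4:**
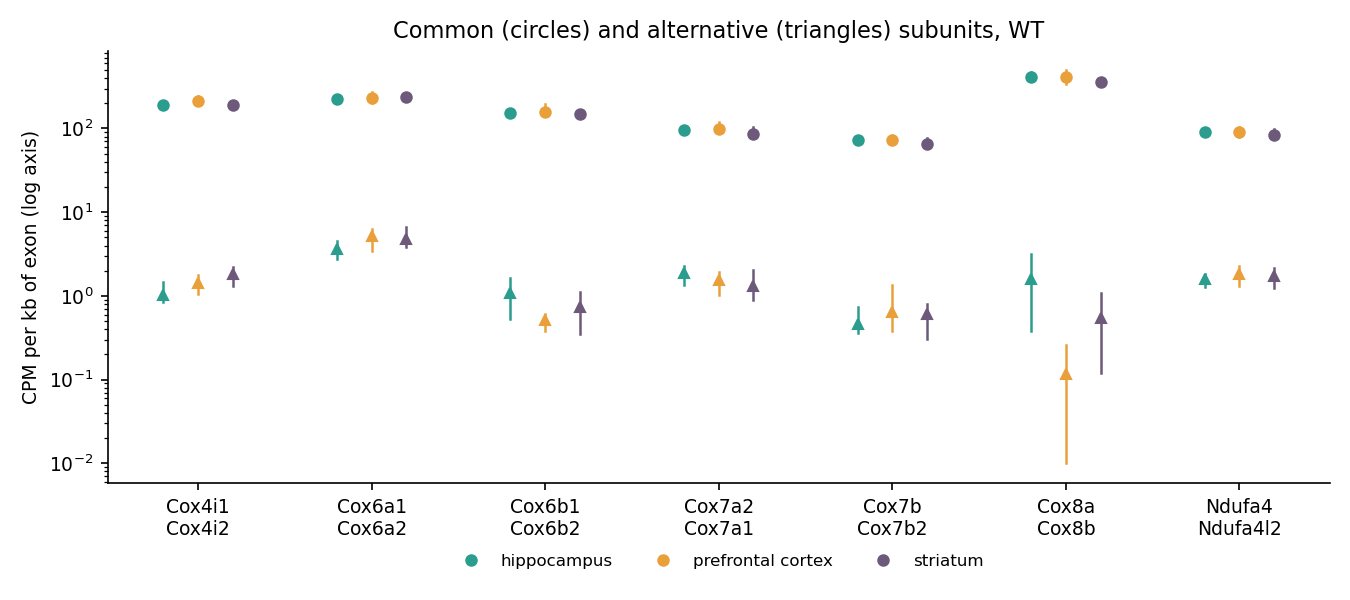
CPM per kb of exon, on a log axis, of the alternative complex IV subunits and their common forms in the 3 regions of WT mice. Points are means of 10 libraries and lines span the lowest to the highest library, with a library at 0 drawn at 0.01. All alternative forms lie far below the common forms, Cox4i2 at 0.552% to 0.962% and Cox8b at 0.0281% to 0.393% by mean.

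The question the study's design poses is whether loss of Adgrl3 changes expression in each region and over the regions together. No respiratory chain gene was called in any such comparison by edgeR's quasi-likelihood test. In hippocampus 0 of 105 members were called (all genes 0.128%), and 2 had an unadjusted p under 0.05. In prefrontal cortex it was 0 of 104 (all genes 0.117%) with 2 under 0.05, and in striatum 0 of 104 (all genes 0.0514%) with 2 under 0.05. With the 3 regions summed per replicate number it was 0 of 105 (all genes 0.162%) with 4 under 0.05. The interaction of genotype and region also called 0 of 105 (all genes 0.0248%), with 1 under 0.05. DESeq2 called 0 in each, with 3, 2, 2, 5 and 1 members at an unadjusted p under 0.05, and limma-voom 0 in each, with 4, 2, 4, 4 and 2. Since few genes of any kind were called, the counts of called members lay near the background. Of all genes 1269 of 15581, 1808 of 15376, 1110 of 15553, 1758 of 16676 and 638 of 16121 had an unadjusted p under 0.05 by edgeR. In each comparison that was a larger share than among the members.

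The differences were small as well as uncalled. Median log2 differences of KO minus WT were 0.027, 0.033, 0.060 and 0.044 for the mt- genes in hippocampus, prefrontal cortex, striatum and the 3 regions together, -0.001, 0.036, 0.047 and 0.026 for the nuclear members, and 0.001, -0.004, 0.002 and 0.000 for all genes. Median standard errors of single members were 0.05, 0.06, 0.06 and 0.04 for mt- genes and 0.03, 0.06, 0.04 and 0.03 for nuclear ones. No member had its KO and WT libraries wholly apart in any region.

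The sign of the nuclear differences changed with the libraries kept. In hippocampus 44 of 92 nuclear members lay above 0, in prefrontal cortex 74 of 91, in striatum 84 of 91 and over the 3 regions 81 of 92. Among all genes 7915 of 15581, 7374 of 15376, 8002 of 15553 and 8349 of 16676 lay above 0, in the same order. Members share libraries and can move together in them, so these counts are no test of direction. Without KO replicates 8, 9 and 10 the nuclear count above 0 was 27 of 91 (median -0.009) in striatum and 24 of 92 (median -0.013) over the regions. The mt- genes were then above 0 in 12 of 13 in striatum (median 0.094) and 12 of 13 over the regions (median 0.066), with 0 called. Those replicates were picked for their high nuclear share in striatum, so leaving them out lowers the KO nuclear values by construction. WT replicate 10, also high in that share, stayed in that fit, which is therefore no independent test of the sign. Without WT replicate 10, 88 of 92 nuclear members lay above 0 in striatum (median 0.064) and 23 members had an unadjusted p under 0.05, still with 0 called. The numbers over all genes in that fit are not given here.

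The members with the smallest p-values included assembly factors, mt- genes and complex IV subunits. Ndufaf4, a complex I assembly factor (chr4:24898083-24905001), ran from 20.2 through 23.6 to 28.9 CPM in WT striatum and from 22.7 through 25.8 to 29.9 CPM in KO striatum, which overlapped over most of their range (log2 difference 0.15, SE 0.06, adjusted p = 0.668). It was 0.09 in hippocampus (SE 0.04, adjusted p = 0.586) and 0.10 over the 3 regions (SE 0.04, adjusted p = 0.340). When the 60 libraries were fitted singly with region as a term, it alone was called (adjusted p = 0.0358), in a fit that counts the 3 regions as separate samples. Ndufaf3, which acts with it in assembly, differed by -0.07 in hippocampus (SE 0.03, adjusted p = 0.583) and -0.03 over the regions (SE 0.03, adjusted p = 0.713). Ndufaf5, a further assembly factor, differed by 0.06 in hippocampus (SE 0.03, adjusted p = 0.643), Ndufaf2 by 0.12 in prefrontal cortex (SE 0.05, adjusted p = 0.400) and Ndufaf8 by -0.03 in striatum (SE 0.05, adjusted p = 0.883).

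mt-Atp6 ran from 6839 through 8741 to 10296 CPM in WT striatum and from 7798 through 9589 to 11295 CPM in KO striatum (log2 difference 0.14, SE 0.07, adjusted p = 0.695), with wide overlap, and differed by 0.09 over the 3 regions (SE 0.03, adjusted p = 0.337). mt-Nd2, a core membrane subunit of complex I, differed by 0.11 in hippocampus (SE 0.06, adjusted p = 0.643) and 0.11 over the regions (SE 0.04, adjusted p = 0.353). mt-Nd5 in striatum was at -0.06 (SE 0.06, adjusted p = 0.822). mt-Nd6 was at -0.10 in striatum (SE 0.18, adjusted p = 0.910) and -0.09 over the regions (SE 0.08, adjusted p = 0.735).

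Among nuclear subunits Cox6c, a small complex IV subunit, ran from 91.0 through 108.4 to 117.3 CPM in WT and from 106.6 through 115.0 to 156.1 CPM in KO prefrontal cortex (log2 difference 0.13, SE 0.06, adjusted p = 0.401), and differed by 0.11 in striatum (SE 0.05, adjusted p = 0.701). Cox8a was at 0.12 in prefrontal cortex (SE 0.07, adjusted p = 0.514). On the other side, Sdha (-0.02, SE 0.02), Ndufs1, the largest subunit of complex I, which holds iron-sulfur clusters (-0.03, SE 0.03), and Ndufa4l2 (-0.09, SE 0.10) had the lowest p of those below 0 in prefrontal cortex, with adjusted p of 0.755, 0.782 and 0.810. Cox8b was at -0.86 in hippocampus (SE 0.42, adjusted p = 0.619) and -0.50 over the regions (SE 0.24, adjusted p = 0.482), and Cox7a1 at -0.26 in hippocampus (SE 0.16, adjusted p = 0.695). The choroid plexus sum was 38.8 through 421.1 to 3058 CPM in KO hippocampus, with a lower median than in WT and overlapping ranges. The olfactory bulb sum given above likewise had a lower median in KO than in WT prefrontal cortex, with overlapping ranges.

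**Figure D5:**
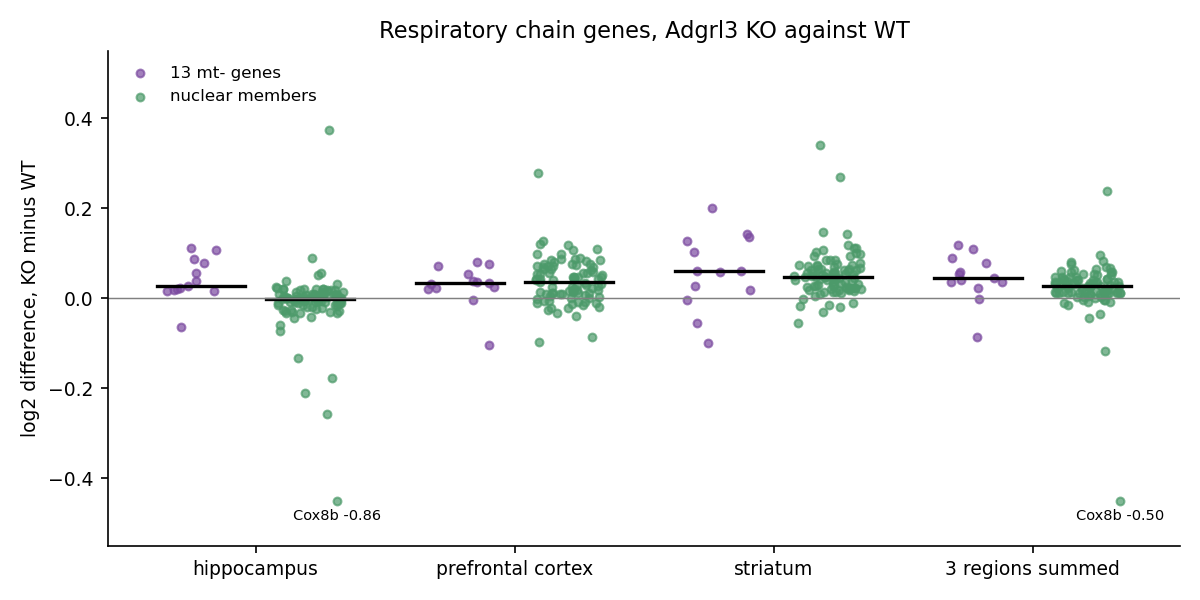
Log2 differences of KO minus WT for the members in each region and over the 3 regions, mt- and nuclear genes apart, one point per gene with a bar at the median. Cox8b in hippocampus and over the regions is drawn at -0.45 and labelled with its value. The medians lie between -0.001 and 0.060, and no gene was called.

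Adgrl3 lies on chromosome 5. Of the members, 4 lie on that chromosome: Cox7b2 (-9.5 Mb from Adgrl3), Atp5k (26.6 Mb), Cox6a1 (33.5 Mb) and Atp5j2 (63.4 Mb). Over the 3 regions their KO minus WT differences were 0.24 (SE 0.18), 0.03 (SE 0.04), 0.05 (SE 0.04) and 0.06 (SE 0.05), with adjusted p of 0.675, 0.801, 0.610 and 0.706.

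Other mitochondrial genes were listed by function. None of 17 genes of mitochondrial DNA upkeep and transcription, 12 regulators of biogenesis, 18 genes of pyruvate dehydrogenase, the citric acid cycle and cytochrome c, 20 of membrane channels, import and carriers, or 78 of the mitochondrial ribosome was called between KO and WT in any region. Over the 3 regions 1 of the 78, Mrpl1, a protein of the large ribosomal subunit, was lower in KO (-0.12, SE 0.03, adjusted p = 0.0497). It lies on chromosome 5 too, 14.4 Mb from Adgrl3.

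Counts of the same lists between WT regions are read against the shares of all genes called. These were 32.7% higher and 33.9% lower in striatum against hippocampus, 36.9% and 34.6% in striatum against prefrontal cortex, and 36.9% and 31.6% in hippocampus against prefrontal cortex. The mitochondrial ribosome list gave 5 of 78 higher and 44 lower in striatum against hippocampus (median -0.114), 8 and 42 against prefrontal cortex (median -0.102), and 23 and 17 in hippocampus against prefrontal cortex (median 0.022). The pyruvate dehydrogenase and citric acid cycle list had 2 of 18 higher and 12 lower against hippocampus (median -0.129), and 3 and 12 against prefrontal cortex (median -0.163). The regulators gave 5 of 12 higher and 1 lower in striatum against hippocampus (median 0.073), and 7 and 0 against prefrontal cortex (median 0.213). Esrrg and Esrra, nuclear receptors known to act on oxidative genes, were higher in striatum than hippocampus by 1.0 (SE 0.08, adjusted p = 1.06e-12) and 0.49 (SE 0.05, adjusted p = 3.52e-11). Gabpb2 and Gabpa, parts of the ETS-family factor GABP, were higher in striatum than prefrontal cortex by 0.89 (SE 0.07, adjusted p = 2.69e-13) and 0.53 (SE 0.04, adjusted p = 1.57e-13).

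Genes of mitochondrial DNA upkeep gave 6 of 17 higher and 5 lower in striatum against hippocampus, near the background. Against prefrontal cortex 10 were higher and 3 lower, with Twnk, the mitochondrial DNA helicase, at 0.48 (SE 0.04, adjusted p = 1.41e-11). The membrane and import list gave 5 of 20 higher and 8 lower in striatum against hippocampus, where Tomm70a, an outer membrane import receptor, was higher by 1.02 (SE 0.04, adjusted p = 5.51e-21), and by 1.06 against prefrontal cortex (SE 0.04, adjusted p = 3.22e-21).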

How the data were processed

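Read counts per gene were used as the authors deposited them in 1 table of 21950 protein-coding genes and 60 libraries. Per the file headers each gene has a start and an end, and counts covered that whole interval, introns included. The submitters' processing notes name GRCm38 as the build, with DESeq2 1.16.1, bedtools, STAR 2.5.2b, the trimmer cutadapt 1.16 and FastQC 0.11.4. No label or header states a strand setting. CPM values were computed from these counts with TMM-scaled library sizes. Tests used edgeR 4.0.16 in R 4.3.3 (glmQLFit robust, glmQLFTest, filterByExpr, TMM), with Benjamini-Hochberg adjustment over all genes tested and a threshold of 0.05. KO was compared with WT within each region (20 libraries), over the 3 regions by summing counts per genotype and replicate number, and as an interaction over 60 libraries. Regions were compared within the 30 WT and the 30 KO libraries. The code was tested on simulated data. Alternatives were DESeq2 1.42.0, limma 3.58.1 (voom with quality weights), sva 3.50.0, RLE size factors, total counts, scaling without mt- genes, other filters, a replicate block and libraries left out.

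Named genes were all mt- genes, the 3 members with the lowest p in each direction for each KO comparison where none was called, and the nuclear members with the largest called differences between WT regions, up to 6 of them. A few others were named after their values were seen: Uqcrc2, Sdha, Sdhd, Ndufa10, Uqcr10, Atp5s, Ndufb10, Cox5a and the genes the block changed. The members, the lists and the rule were chosen with earlier results of these data known. Levels per kb used exon lengths of GENCODE vM21. Promoters came from RefSeq (GRCm38.p6). A marker of the cell type lists is not reported here and was left out of the sums.

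Same-numbered libraries were checked for pairing over 13972 genes. Deviations from the group means correlated above 0.1 in 10 of 10 pairs for hippocampus with prefrontal cortex and for prefrontal cortex with striatum in each genotype (lowest r 0.21, medians 0.30 to 0.35). They did so in 8 of 10 for hippocampus with striatum, and in 2 or 3 of 10 for KO with WT. For contrasts with prefrontal cortex this points to pairing, a hint from the data and not from the labels. If equal numbers mark the same mouse there, they do so for hippocampus with striatum as well, where the median r was 0.29 in WT and 0.28 in KO. The sums over the 3 regions also take equal numbers as 1 unit. Printed values come from fits without the block. Block values stand beside a result where they change a call or, for striatum against hippocampus, in the closing paragraph. No 2 libraries of a group agreed within sampling noise: the lowest chi-square per degree of freedom was 5.57 over 270 pairs.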

Additional observations from a re-analysis of the deposited data

Results flagged for a closer look

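Within each group of 10 libraries the highest and the lowest value of each named member, and of the summed shares and their ratio, were compared with the rest. A library stood apart in 39 of 306 groups tested, where chance gives about 1 in 20. All but 1 of these were high values, and most fell on a few libraries.

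WT striatum replicate 10 had the highest nuclear share of its group, 0.902% against 0.791% to 0.845%. It stood at 67.9 CPM for Atp5g2 (55.6 to 60.8 in the others), 165.7 CPM for Atp5g3 (133.8 to 141.7 in the others), 168.5 CPM for Atp5o (147.7 to 154.5 in the others) and 333.8 CPM for Cox4i1 (273.4 to 303.7 in the others). It also reached 98.2 CPM for Cox7a2 (75.2 to 85.8 in the others), 120.0 CPM for Cox7a2l (101.1 to 107.9 in the others), 38.7 CPM for Ndufa1 (25.9 to 30.9 in the others) and 135.5 CPM for Ndufa4 (110.8 to 118.2 in the others). Further values there were 67.6 CPM for Ndufb11 (54.2 to 59.9 in the others), 37.5 CPM for Ndufb6 (29.5 to 32.9 in the others), 56.5 CPM for Ndufc2 (39.6 to 47.7 in the others) and 385.4 CPM for Sdha (349.2 to 365.1 in the others). The last were 97.8 CPM for Sdhb (84.8 to 89.5 in the others) and 24191 CPM for mt-Co1 (21013 to 22437 in the others).

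WT prefrontal cortex replicate 6 stood at 70.8 CPM for Atp5g2 (53.8 to 62.6 in the others), 211.3 CPM for Atp5o (166.3 to 187.6 in the others), 138.7 CPM for Cox6b1 (101.2 to 121.1 in the others) and 85.1 CPM for Ndufa8 (63.1 to 72.8 in the others). It also reached 7457 CPM for mt-Co2 (5549 to 6367 in the others), 9257 CPM for mt-Co3 (6867 to 8000 in the others) and 8225 CPM for mt-Cytb (6329 to 7053 in the others).

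KO prefrontal cortex replicate 3 stood at 27239 CPM for mt-Co1 (19747 to 23677 in the others), 9807 CPM for mt-Co3 (6727 to 8049 in the others) and 1200 CPM for mt-Nd4l (780.7 to 953.0 in the others). KO prefrontal cortex replicate 10 stood at 156.1 CPM for Cox6c (106.6 to 123.4 in the others), 14.7 CPM for Ndufaf2 (11.4 to 12.9 in the others) and 123.4 CPM for Sdhb (96.1 to 109.7 in the others). KO hippocampus replicate 1 stood at 101.1 CPM for Cox7a2 (84.2 to 92.9 in the others), 69.0 CPM for Ndufa8 (61.1 to 65.3 in the others) and 25.4 CPM for mt-Nd6 (13.5 to 18.8 in the others). WT hippocampus replicate 6 stood at 127.5 CPM for Cox7a2l (109.7 to 117.6 in the others) and 295.8 CPM for Cox8a (235.2 to 265.7 in the others). WT prefrontal cortex replicate 10 stood low at 681.5 CPM for mt-Nd4l (815.0 to 940.1 in the others). WT prefrontal cortex replicate 9 stood at 0.739 CPM for Cox7b2 (0.209 to 0.380 in the others). WT hippocampus replicate 9 stood at 0.400 CPM for Cox7b2 (0.194 to 0.260 in the others). KO striatum replicate 10 stood at 136.6 CPM for Cox6c (101.0 to 119.0 in the others). WT striatum replicate 6 stood at 62.9 CPM for Ndufa8 (55.8 to 59.5 in the others). KO striatum replicate 9 stood at 66.6 CPM for Ndufa8 (56.7 to 61.9 in the others).

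Without WT replicate 10 the striatum comparisons kept their counts of calls within 1.5 times.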

How the results depend on the processing

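Of the alternatives run, 144 comparison-level values kept their direction and stayed within 1.5 times the reported count or within 1 SD. The splits into higher and lower calls given with the results also changed with the scaling and with libraries left out. KO against WT over the 3 regions called 1 member, Ndufaf4, when 60 libraries were fitted with region as a term, and 0 in the other alternatives. That fit counts 3 regions as separate samples. Striatum against hippocampus in KO called 65 members without KO replicates 8, 9 and 10, an alternative added after the data were seen, against 40 with them. The cause was not tested. No result for a single named gene changed its direction when called, 56 crossed the threshold towards a call and 67 away from it, and 72 values that were not called changed sign.

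With the replicate block, striatum against hippocampus called 68 members in WT and 53 in KO, against 62 and 40 without it. Striatum against prefrontal cortex called 54 and 59, and hippocampus against prefrontal cortex 47 and 49, while KO against WT called 0 in every comparison. For KO against WT the block joins KO and WT libraries of equal number, whose deviations had a median r of -0.17, 0.02 and -0.15 in hippocampus, prefrontal cortex and striatum. That outcome therefore adds no support. For striatum against hippocampus, where the check of pairing was less clear, the block also brought calls for Cox7b2 in WT (0.41, adjusted p = 0.0352) and for Atp5g1 (-0.09, adjusted p = 0.0400), Cox8a (-0.14, adjusted p = 0.0051) and Ndufa4 (-0.10, adjusted p = 0.0460) in KO. Beyond these and the calls given with the results, the block changed no call of a named gene. Leaving out WT replicate 5 gave 56, 46 and 37 calls in the 3 WT contrasts and leaving out KO replicate 8 gave 38, 44 and 40 in the KO contrasts, in the same order. Counts under the alternatives stand without the shares of all genes called there. A change among the members therefore cannot be told from a change among all genes. With 10 libraries a group not every library was left out in turn. Depth limits Cox8b, Cox7b2 and Cox6b2 most. Cox8c had too few reads for any test.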
